A study of Homo sapiens with 2 samples.

Results

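The ALDEFLUOR assay sorts living cells by aldehyde dehydrogenase (ALDH) activity, and 10 ALDH genes whose enzymes are discussed as sources of that activity were examined in ovarian cancer cells sorted in this way: ALDH1A1, ALDH1A2, ALDH1A3, ALDH1B1, ALDH1L1, ALDH1L2, ALDH2, ALDH3A1, ALDH3A2 and ALDH7A1. They were found by name among the gene probes of the array, and all 15 probes that carried one of these names were kept, of 34127 gene probes for 27267 genes. Of the 10 genes, 8 had a measured probe, meaning one that the scanner software called well above background on both arrays for the same sorted population, in ALDH+ cells, in ALDH- cells or in both. ALDH1A3 had the highest ratio, with 1.52-fold more signal from ALDH+ than from ALDH- cells, followed by ALDH7A1 at 1.27-fold. ALDH2 was 1.12-fold lower, the other 5 measured genes had mean log2 ratios between -0.0094 and 0.20, and no gene reached the 2-fold threshold that the study used. For ALDH1A1, neither probe met this requirement.

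RMG1 is an established line of ovarian clear cell adenocarcinoma, and it was grown untreated in DMEM/F12 medium with serum. Its ALDEFLUOR positive (ALDH+) and ALDEFLUOR negative (ALDH-) cells had the same culture conditions and, per the labels, differed in the sort alone. Each population gave 1 RNA extract, and the pair was hybridized to 2 two-color arrays of 60-base probes on 1 slide, with ALDH+ cells in Cy5 on the first array and in Cy3 on the dye-swapped array. The arrays therefore counted as 1 replicate, the populations could not be tested against each other, and each SD below is the technical spread over the 2 arrays. The sample labels and the study's results name RMG1 as the source, whereas its methods name AMOC2, another ovarian cancer line. Less RNA in every cell and fewer cells with that RNA cannot be told apart in such pooled extracts.

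ALDH enzymes oxidize aldehydes to carboxylic acids with NAD+ or NADP+ as the electron acceptor. In the ALDEFLUOR assay, an uncharged fluorescent aldehyde enters the cells, and its oxidation leaves a charged product that is held back inside. The inhibitor DEAB sets the gate for negative cells, and efflux pumps of the ABC transporter family can carry the product out again. Cells with high ALDEFLUOR fluorescence are widely studied as stem-like cells in carcinomas. The ALDH1A enzymes make retinoic acid from retinaldehyde. ALDH2 and ALDH1B1 are mitochondrial enzymes that clear acetaldehyde, ALDH1L1 and ALDH1L2 oxidize 10-formyltetrahydrofolate, the ALDH3A enzymes act on aromatic and long-chain aldehydes, and ALDH7A1 takes part in lysine breakdown.

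The probes on which the results turn were those of ALDH1A1, ALDH1A3, ALDH1L1 and ALDH7A1, because these genes had either the highest ratios or no measured probe. Sequences are as deposited, 5′ to 3′, with the longest run of bases that also occurs in a probe of another of the 10 genes in capitals; for ALDH1A3, 30 of the 60 bases are given.
ALDH1A1 probe 1: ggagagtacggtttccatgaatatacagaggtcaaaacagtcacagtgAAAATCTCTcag
ALDH1A1 probe 2: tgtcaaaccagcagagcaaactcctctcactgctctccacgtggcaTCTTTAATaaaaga
ALDH1A3: ccttgatagtgaTACGTTAgagggttccta
ALDH1L1: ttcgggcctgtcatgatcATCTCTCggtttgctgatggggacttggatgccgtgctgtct
ALDH7A1 probe 1: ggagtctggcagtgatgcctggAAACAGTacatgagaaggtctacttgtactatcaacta
The runs in capitals were short, with 9 bases as the longest among all 15 probes, shared by ALDH1A1 probe 1 and the ALDH2 probe. Coordinates are those of the array design on hg19. ALDH1A1 probe 1 lay at chr9:75516136-75516195 and ALDH1A1 probe 2 at chr9:75540401-75540460, both on the minus strand. The ALDH1A3 probe lay at chr15:101456503-101456562 on the plus strand. The ALDH1L1 probe lay on the minus strand at chr3:125824747-125826021, a span of 1275 bases, and ALDH7A1 probe 1 on the minus strand at chr5:125880700-125882063, a span of 1364 bases. A probe of 60 bases that spans more than its own length crosses an exon boundary, which was the case for 3 of the 15 probes, the third being ALDH3A1 probe 1. Exons and untranslated regions were not assigned here.

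Marker genes fitted the label of an epithelial tumor line. All 9 epithelial and clear cell carcinoma markers were measured, with ratios between -0.74 on the log2 scale for PAX8 and 0.13 for KRT19. Of 10 markers of white blood cells, stroma and vessels, 2 were measured, PTPRC at 0.036 and CD14 at 0.45, and the T cell, B cell, collagen and endothelial markers were not. PTPRC was close to background, with Cy3 signals of 180.0 in ALDH+ and 174.9 in ALDH- cells. The highest negative control spots of those arrays in Cy3 were 154.9 and 178.3. Its log2 ratios of -0.12 and 0.19 had opposite signs. Over all 13718 measured genes the median log2 ratio was -0.0023, and the central 95% of genes lay between -0.73 and 0.48. The 153 negative control spots of each array, which match no transcript, had median signals of 45.1 and 43.1 in Cy5 and of 135.2 and 127.2 in Cy3. No spot of the 15 ALDH probes was saturated or an outlier.

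None of the 8 measured ALDH genes was more than 2-fold higher, against 0.211% of all measured genes, and none was more than 2-fold lower, against 0.707%. With median centring of each array in place of loess, the 29 genes that were 2-fold higher and the 97 that were 2-fold lower became 53 and 45, and with the array software's own ratio they became 137 and 276. The ALDH count stayed at 0 in each case. At 1.5-fold, 1 of the 8 was higher, ALDH1A3, against 1.51% of all genes, and 0 were lower, against 4.59%. On the dye-swapped array alone ALDH1A3, at 0.56, was under 1.5-fold. The median log2 ratio of the 8 genes was 0.10, but it was 0.22 on the first array alone, 0.0031 on the dye-swapped array alone and 0.32 with the array software's ratio. Of the 8, 6 had a mean above 0, and on the dye-swapped array alone 4 did, whereas 49.6% of all genes had a mean above 0. The 6 include ALDH1B1, at 0.0037, and ALDH3A1, which was measured through ALDH+ cells alone. Of the 8 genes, 4 had the same sign on both arrays, whereas 69.7% of all genes did. The part of the ratio that followed the dyes and not the cells was at most 0.22 for these genes, and its 95th percentile over all genes was 0.26.

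**Figure D1:**
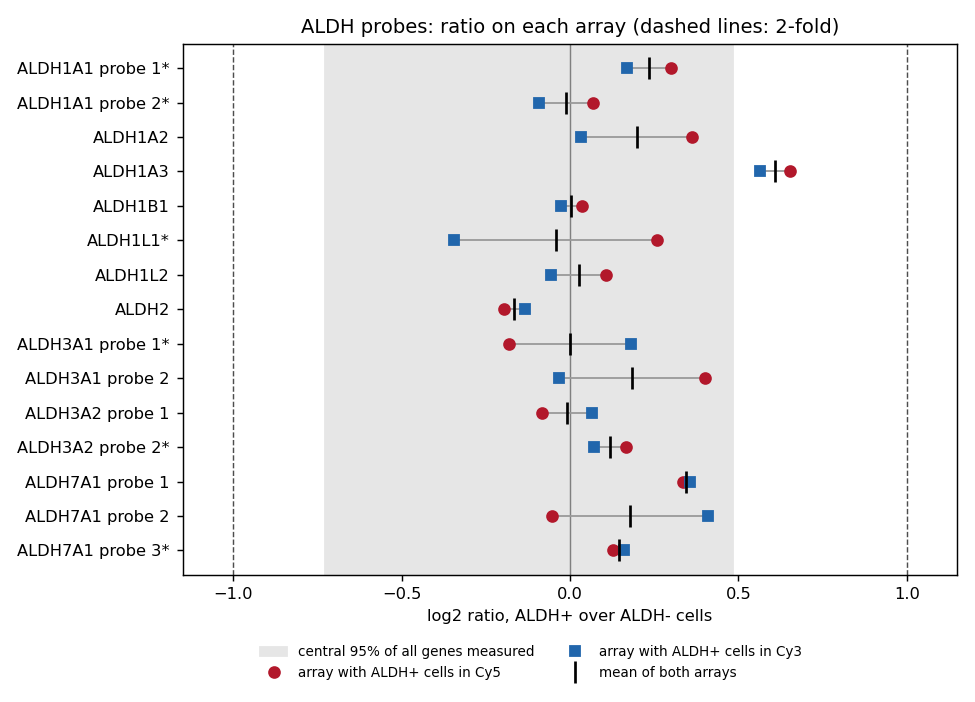
Log2 ratio of ALDH+ over ALDH- cells (horizontal axis) for each of the 15 ALDH probes, on the first array (ALDH+ in Cy5, circles) and on the dye-swapped array (squares), with the mean (bars); an asterisk marks probes not measured, gray is the central 95% of all measured genes and dashed lines are 2-fold. ALDH1A3 is the only probe with both arrays to the right of the gray band, at 0.65 and 0.56, and ALDH7A1 probe 1 has the closest pair of arrays, at 0.33 and 0.36.

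Among the retinaldehyde dehydrogenases, ALDH1A3 was the gene with the clearest signal. Its single probe gave signals of 16628 in Cy5 and 7312 in Cy3 for ALDH+ cells, and of 8533 in Cy5 and 4186 in Cy3 for ALDH- cells. In each dye the uncorrected ALDH+ signal was the higher one, and all 4 readings were far above the negative control spots. Within a dye the populations were read on different arrays, so the order of such signals alone does not show a difference. KRT7 also read higher for ALDH+ cells, at 69553 against 63945 in Cy5 and 29157 against 25966 in Cy3. Its normalized log2 ratio was -0.30. After normalization the log2 ratio of ALDH1A3 was 0.65 on the first array and 0.56 on the dye-swapped array. ALDH1A3 thus had a mean of 0.61 ± 0.065 (technical SD, 2 arrays) or 1.52-fold. It ranked 185th of the 13718 genes, with 1.3% of genes higher. The difference between the arrays was small beside the ratio, but how far the ratio would differ in another sort is not known.

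Its close relative ALDH1A2, which makes retinoic acid in the embryo, was measured near the lower limit of the assay. ALDH+ cells gave 165.5 in Cy5 and 182.2 in Cy3, and ALDH- cells gave 139.2 and 172.4. The probe was well above background in all 4 readings, although its Cy3 signals were close to the negative controls, whose highest spots were 178.3 and 154.9 on the arrays. The log2 ratios of 0.36 and 0.034 differed by more than their mean of 0.20 ± 0.23 (technical SD, 2 arrays), so no direction was resolved for ALDH1A2.

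ALDH1A1, the isoform most often named with the ALDEFLUOR assay, had 2 probes, and neither was measured. Probe 1 gave 69.4 in Cy5 and 147.2 in Cy3 in ALDH+ cells, and 50.9 and 135.4 in ALDH- cells. None of its 4 readings was well above background, and each lay below the highest negative control spot of its dye and array. Probe 2 gave 82.9 in Cy5 and 149.3 in Cy3 in ALDH+ cells, and 84.2 and 153.2 in ALDH- cells. It was well above background in Cy5 in both populations and in Cy3 in neither, and in Cy5 its signals in the populations were close to each other. Probe 2 had log2 ratios of 0.068 and -0.091 on the 2 arrays, and of 0.83 and -0.43 in the array software's own ratio, so no direction was resolved. No fold change is given for ALDH1A1 probe 1, because both populations were at background. That probe alone set no limit on how ALDH1A1 RNA differed between the populations. The ratio of probe 1 depended on the processing, with 0.23 on the log2 scale after normexp, 1.09 with the negative control spots as background and 1.71 in the array software's own ratio. These values of probe 1 are not read as a difference.

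**Figure D2:**
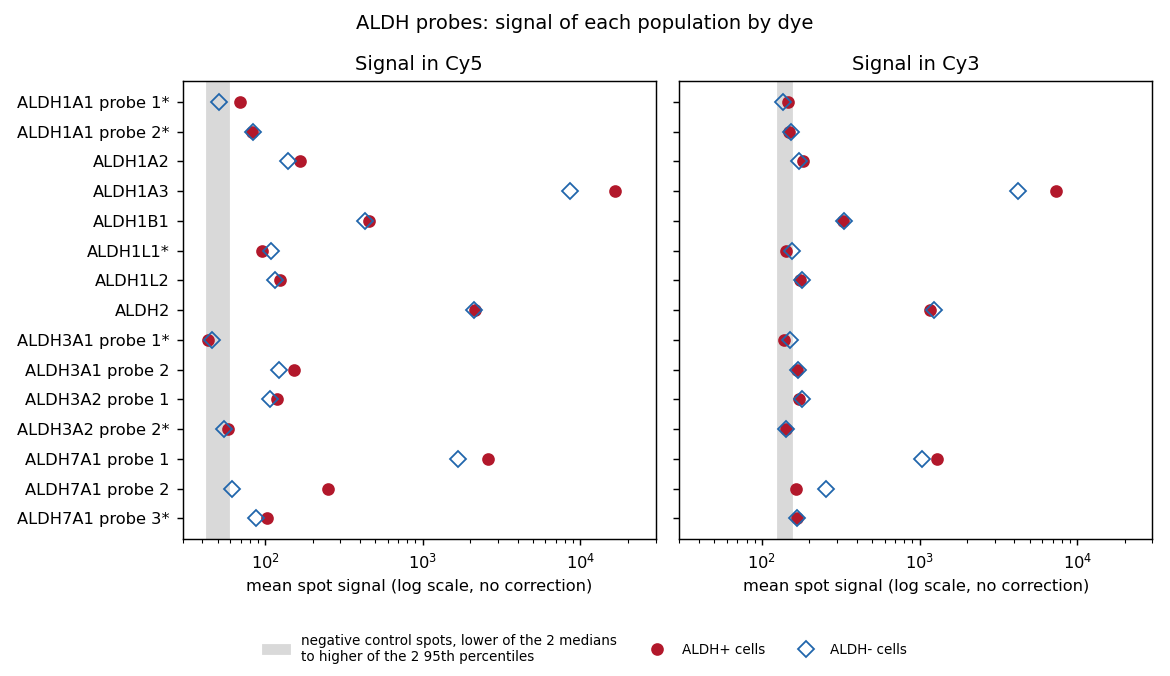
Mean spot signal before correction (horizontal axis, log scale) of each ALDH probe in Cy5 (left) and Cy3 (right) for ALDH+ cells (filled circles) and ALDH- cells (open diamonds), each point 1 spot; gray spans the negative control spots and an asterisk marks probes not measured. ALDH1A3 (16628 against 8533 in Cy5) and ALDH7A1 probe 1 (2578 against 1683 in Cy5) have higher ALDH+ signals in both dyes. So do the dim probes ALDH1A2 and ALDH1A1 probe 1. Many probes, both of ALDH1A1 among them, sit near the negative controls in Cy3. Within a dye the populations were read on different arrays, so these uncorrected signals alone do not show a difference.

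Dim ALDH probes were called above background more often in Cy5 than in Cy3. Of the 30 readings of the 15 probes in Cy5, 24 were well above background, and of the 30 in Cy3, 15 were. ALDH1A1 probe 2, the ALDH1L1 probe and ALDH7A1 probe 3 were well above background in both populations in Cy5 and in neither in Cy3. Over the whole array, counted by probe and not by reading, 19377 of 34127 gene probes were well above background in both populations in Cy5. In Cy3, 15377 were. With the Cy5 flags alone, a rule chosen after seeing the data, all 10 genes counted as measured, 6 had a mean above 0, their median was 0.015 and 0 passed 2-fold.

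The mitochondrial acetaldehyde dehydrogenases showed little difference. ALDH2 gave 2132 in Cy5 and 1162 in Cy3 in ALDH+ cells, and 2112 and 1228 in ALDH- cells. Its log2 ratio was below 0 on both arrays, at -0.20 and -0.13, with a mean of -0.17 ± 0.045 (technical SD, 2 arrays), and 72.9% of all genes had a higher ratio. ALDH1B1 gave 458.2 in Cy5 and 324.9 in Cy3 in ALDH+ cells, and 431.5 and 331.5 in ALDH- cells. Its ratios of 0.035 and -0.028 averaged 0.0037 ± 0.045, with the arrays on opposite sides of 0. The ALDH2 probe lay on the plus strand at chr12:112247448-112247507 and the ALDH1B1 probe on the plus strand at chr9:38397700-38397759.

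Of the folate enzymes, the mitochondrial ALDH1L2 was measured and the cytosolic ALDH1L1 was not. ALDH1L2 gave 125.2 in Cy5 and 174.0 in Cy3 in ALDH+ cells, and 116.4 and 179.9 in ALDH- cells, and its log2 ratio was 0.026 ± 0.12 (technical SD, 2 arrays). ALDH1L1, whose probe is printed above, gave 95.2 in Cy5 and 143.1 in Cy3 in ALDH+ cells, and 108.5 and 154.1 in ALDH- cells. Its 2 arrays pointed in opposite directions, at 0.26 and -0.34, the widest such gap among the 15 probes. Neither folate enzyme thus had a resolved direction.

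ALDH3A1, known from cornea and from drug metabolism, and ALDH3A2, the fatty aldehyde dehydrogenase of the endoplasmic reticulum, each had 1 measured probe of 2. ALDH3A1 probe 2 gave 152.7 in Cy5 and 168.1 in Cy3 in ALDH+ cells, and 123.4 and 170.4 in ALDH- cells. Its log2 ratio was 0.40 on one array and -0.032 on its dye swap. The mean of 0.18 ± 0.31 (technical SD, 2 arrays) therefore came from 1 array. ALDH3A1 probe 1, for another transcript, gave 43.2 and 46.1 in Cy5, which is the level of the negative controls. ALDH3A2 probe 1 gave 119.0 in Cy5 and 170.9 in Cy3 in ALDH+ cells, and 107.4 and 179.1 in ALDH- cells, and its ratio was -0.0094 ± 0.11. In ALDH- cells, both measured probes passed the background flag in Cy5 but not in Cy3.

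ALDH7A1, also called antiquitin, had the second-highest ratio among the 8 genes. Probe 1 gave 2578 in Cy5 and 1298 in Cy3 in ALDH+ cells, and 1683 and 1043 in ALDH- cells. As for ALDH1A3, the uncorrected ALDH+ signal was higher in each dye, which alone does not show a difference. The log2 ratios of 0.33 and 0.36 averaged 0.345 ± 0.015 (technical SD, 2 arrays), or 1.27-fold, and 6.6% of all genes had a higher ratio. The other probes of ALDH7A1 did not give the same value. Probe 2, for another transcript model, gave 251.3 and 255.7 for ALDH+ and ALDH- cells on the first array but 165.3 and 62.1 on the dye-swapped array, so both populations read higher on the first array, and the last value was near the Cy5 negative controls. Its log2 ratios were -0.053 and 0.41. Probe 3, not measured, had 0.13 and 0.16. All 3 means were above 0, at 0.345, 0.18 and 0.14. With an offset of 10 in place of 50 in the background correction they were 0.37, 0.35 and 0.23. Probe 2 then had -0.0625 on the first array and 0.755 on the dye-swapped one, where its ALDH- signal was near the negative controls. Without background correction the 3 means were 0.33, 0.12 and 0.092, so the probes were not closer to each other under every setting.

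Other processing left ALDH1A3 in first place but not the order of the genes behind it. ALDH1A3 stayed highest of the measured ALDH genes and between 0.56 and 0.89 under the 13 alternatives that were run, and it never changed sign. Not all of these could move it. Its single probe passed every flag, so the other filters and the mean over probes returned the same value. The joined table repeats the software's ratio. ALDH7A1 (0.26 to 0.48), ALDH1A2 (0.034 to 0.45) and ALDH2 (-0.20 to -0.030) also kept their sign. ALDH7A1 fell behind ALDH1A2 with the negative control spots as background (0.37 against 0.45) and with the software's ratio (0.37 against 0.42), and on the first array alone it was behind ALDH3A1 (0.40) and ALDH1A2 (0.36). ALDH1B1 and ALDH3A2 each changed sign under 5 alternatives, with the software's ratio and the joined table counted separately. ALDH1L2 and ALDH3A1 each did so under 1. The top value of ALDH1A3 came from median centring, which removes no trend of the ratio with brightness. There ALDH1A3 read 1.78 on the first array and 0.012 on the dye-swapped one, and the 500 genes nearest to it in brightness also had a median of 0.25 over both arrays. Set against such neighbors, ALDH1A3 was higher by 0.64 with loess and by 0.64 with median centring, and ALDH7A1 by 0.36 with either. Taking off the median of such neighbors removes the trend with brightness, as loess does. The closeness of these values was therefore built in and is no separate support.

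**Figure D3:**
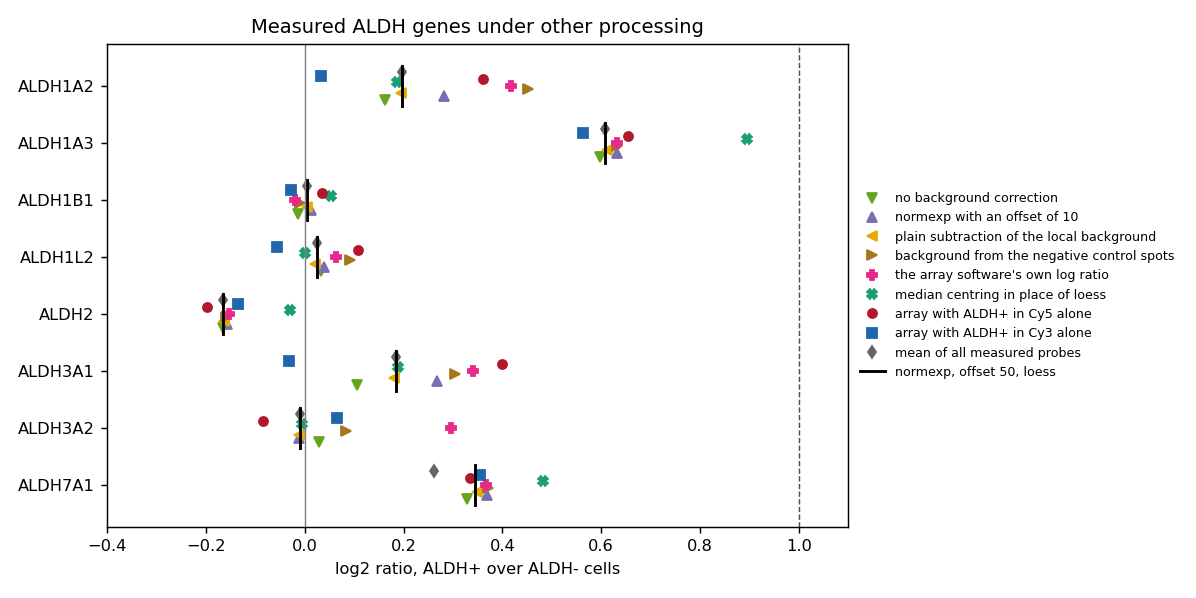
Log2 ratio of ALDH+ over ALDH- cells (horizontal axis) of the 8 measured ALDH genes, with normexp, an offset of 50 and loess (black bars) and under other processing (symbols); the dashed line is 2-fold. ALDH1A3 stays between 0.56 and 0.89 and under 2-fold, whereas the symbols of ALDH1B1 and ALDH3A2 lie on both sides of 0.

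None of the other ALDH family genes that were measured had a ratio as far from 0 as ALDH1A3. Of 9 such genes, 7 were measured, 3 with a mean above 0 and 4 below, with a median of -0.048 and 0 past 1.5-fold. The highest were ALDH9A1, which oxidizes aminoaldehydes, at 0.24, and ALDH16A1 at 0.11. The lowest were ALDH3B1 at -0.18 and ALDH5A1, the succinate semialdehyde dehydrogenase, at -0.11. The 2 arrays of ALDH5A1 disagreed, with -0.55 and 0.33.

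Genes that act on either side of the ALDH1A enzymes did not share one direction. Of 19 retinoic acid genes reported here, 13 were measured, 4 above 0 and 9 below, with a median of -0.18 and 0 past 1.5-fold. The highest were PLAAT4, a retinoid-responsive gene, at 0.36 (0.39 and 0.33 on the arrays) and RDH10, which oxidizes retinol to the retinaldehyde that the ALDH1A enzymes use, at 0.31 (0.29 and 0.34). Both had similar ratios on the 2 arrays. The lowest were NRIP1, a corepressor, at -0.58 and the receptor RXRA at -0.38. Of the enzymes that degrade retinoic acid, CYP26A1 was at -0.25 but was measured through ALDH- cells alone. Its Cy3 signals were 164.5 in ALDH+ and 176.0 in ALDH- cells. The highest negative control spots of those arrays in Cy3 were 154.9 and 178.3, so no direction is read for CYP26A1. CYP26B1 and CYP26C1 were not measured. The receptor RARB, a known retinoic acid target, and DHRS9, STRA6 and RARRES1 were not measured either.

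In the folate one-carbon list, which holds the partners of the ALDH1L enzymes, 13 of the 15 genes reported here were measured, 4 above 0 and 9 below, with a median of -0.089 and 0 past 1.5-fold. ATIC of purine synthesis (0.18) and the serine hydroxymethyltransferase SHMT1 (0.10) were highest, and SHMT2, its mitochondrial relative (-0.35), and the cytosolic MTHFD1 (-0.20) lowest. On the 2 arrays ATIC had 0.034 and 0.32, and SHMT1 had 0.27 and -0.067, so no direction was resolved for SHMT1. SHMT2 and MTHFD1 were below 0 on both arrays. ALDH3A1 is a known target of the aryl hydrocarbon receptor, and 5 of 9 genes of that pathway were measured, 3 above 0 and 2 below, with a median of 0.15 and 2 past 1.5-fold higher, against 1.51% of all genes. TIPARP had log2 ratios of 0.91 and 0.78 (1.80-fold). The other, CYP1A1, had 1.07 and 0.62 but was measured through ALDH+ cells alone, and its ALDH- signal of 155.5 in Cy3 was at the level of the negative controls, whose 95th percentile was 154.7, so its fold is not given. The receptor itself, AHR, was at -0.019 and its partner ARNT at -0.12.

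Of 6 ABC transporters that can export the ALDEFLUOR product or related dyes, 3 were measured, and 2 of the 3 were more than 1.5-fold lower, ABCC3 and ABCC4, against 4.59% of all genes. ABCC3 had the lowest ratio of these, with signals of 8656 in Cy5 and 3650 in Cy3 in ALDH+ cells against 12157 and 6333 in ALDH- cells. Its log2 ratios were -0.87 and -0.96. ABCC4 had -0.59 and -0.75, and ABCC1 averaged 0.0085. ABCC2 and the well-known dye pumps ABCB1 and ABCG2 were not measured. The mean ratios of ABCC3 (-0.91) and ABCC4 (-0.67) were thus farther from 0 than the mean of ALDH1A3 (0.61), and the part of transporters in the ALDEFLUOR signal was not tested.

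**Figure D4:**
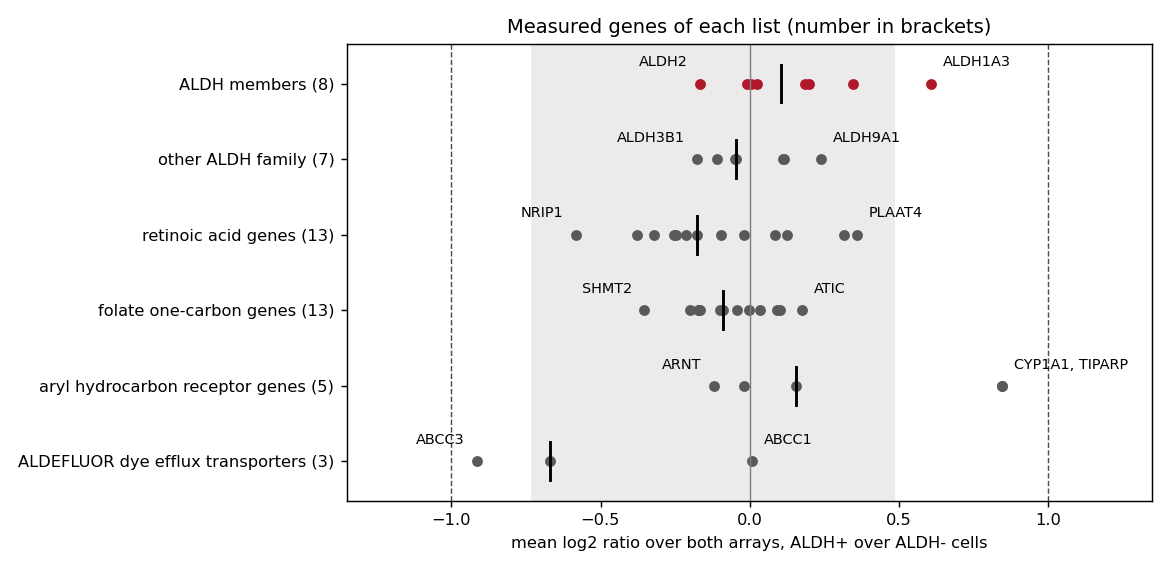
Mean log2 ratio of ALDH+ over ALDH- cells (horizontal axis) for the measured genes of each list, 1 point a gene, with the median (bars), the central 95% of all measured genes (gray) and 2-fold (dashed lines); the highest and lowest gene of each list are named. The 8 ALDH genes run from -0.17 (ALDH2) to 0.61 (ALDH1A3), and TIPARP (0.84) and ABCC3 (-0.91) lie farther from 0. CYP1A1 is also drawn at 0.84, but it was measured through ALDH+ cells alone, so its size is not read.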

How the data were processed

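RNA from the sorted RMG1 populations was read on 2 dye-swapped arrays, counted as 1 replicate. The authors deposited spot intensity with local background, not normalized, from Feature Extraction (10.7.3.1 in the file header, 8.5.1.1 in the submitters' processing notes). The deposited files also hold that software's log10 ratio and its flags for spots well above background, saturated or outlying, and a joined table repeats the log10 ratio of both arrays. Intensities were corrected by normexp (offset 50) and normalized by loess within each array in R 4.3.3 with limma 3.58.1, without outlier (531 and 519) and control spots. Later steps used Python 3.11.15, numpy 2.4.6 and pandas 2.3.3. Flags were taken per probe, which passed with over 50% of its spots; each ALDH probe had 1 spot. The brightest measured probe stood for a gene. RefSeq symbols (GRCh38.p14, names only) were matched for 25422 probes. Of each list, the 2 highest and 2 lowest genes were named; 1 gene of the retinoic acid list and 1 of the folate list are not reported here and are left out of the counts and medians of those lists. The ALDH genes and the lists were chosen with earlier results of these data known. Alternatives covered background correction, normalization, source of the ratio, single arrays, filters, probe rule and threshold. The steps were tested on simulated data. No test was run, and the number of arrays limits the precision. The offset draws the ratios of dim probes toward 0.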

Additional observations from a re-analysis of the deposited data

How the results depend on the processing

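Of the 89 ratios of single ALDH genes other than ALDH1A3 recomputed under alternatives, 12 moved by more than the technical SD, which single arrays and most filters could not exceed by construction. The sign changed in 12, which were those of ALDH1B1 (5), ALDH3A2 (5), ALDH1L2 (1) and ALDH3A1 (1). These counts take the software's ratio and the joined table, which repeats it, as separate alternatives. The number of measured ALDH genes past 2-fold was 0 under each background correction, normalization, filter, array and probe rule. It was 1 at 1.5-fold and 0 at 3-fold, which follows from 0 at 2-fold. Under these settings at most 0.999% of all genes were 2-fold higher and 2.01% lower, so a count of 0 is not read as a trait of the ALDH genes. The median of the ALDH genes, 0.10 as reported, was 0.32 with the array software's own log ratio and 0.32 with the joined table, which holds that ratio. With single arrays the median ran from 0.0031 to 0.22 and ALDH1A3 from 0.56 to 0.65, with the lower value of each from the dye-swapped array. ALDH1A3 was 0.89 with median centring, under which the median of all genes was 0.56 on the first array and -0.43 on the dye-swapped array. Over all genes, the 29 that were 2-fold higher and 97 lower became 19 and 85 without background correction, 65 and 124 with an offset of 10, 127 and 227 with the negative control spots as background, 137 and 276 with the software's ratio, and 53 and 45 with median centring. The cause of these shifts was not tested. Slide could not be fitted as a block because both arrays share 1 slide. No paired analysis was possible because the design has a single sample of each population. Signal close to the negative controls in Cy3 limits what can be said of ALDH1A1, ALDH1A2, ALDH1L1, ALDH1L2, ALDH3A1 and ALDH3A2.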
